A study of Mus musculus with 6 samples.

Results

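The 29 genes described here encode enzymes and regulators of cholesterol and fatty acid synthesis, and they were chosen by name as textbook members of these pathways. On the arrays they are 29 of 34298 gene names and are measured by 45 probes. Each gene is represented by its brightest probe, the one with the highest mean over all 6 arrays, and all 29 of these probes were well above background on all 6 arrays. Values are the log2 intensities that the authors deposited, and every difference is esophagus minus stomach on that log2 scale.

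Cholesterol is built from acetyl-CoA, which is joined into HMG-CoA and mevalonate, activated to isoprenoid units, condensed to squalene, closed into lanosterol and trimmed to cholesterol. Fatty acids are built from the same acetyl-CoA by carboxylation, chain extension and desaturation. Both routes are transcribed under the SREBP factors, membrane proteins that INSIG proteins hold in the endoplasmic reticulum when sterols are plentiful. Stratified squamous epithelium such as the epidermis also uses these lipids for the barrier of its upper layers.

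Three-dimensional epithelial organoids of both organs were grown from the same mice, numbered 1, 2 and 4, and each of the 6 cultures was hybridised to 1 single-colour Agilent mouse array, 3 per tissue. All cultures were at passage 0 and labelled as controls, and they were harvested on day 8 except the stomach culture of mouse 4, harvested on day 7. Per the study's methods, the stomach cultures came from corpus glands and were fed WNT3A and R-spondin1 conditioned medium with gastrin, while the esophageal medium lacked these and held forskolin. Both media shared EGF, noggin, FGF-10, nicotinamide, N-acetylcysteine, a TGF-β receptor inhibitor and a ROCK inhibitor. Effects of tissue and of medium therefore cannot be told apart. The methods name wild-type C57BL/6 female mice, but the labels give no strain or age for the animals of these arrays. Each group is 3 cultures from 3 animals.

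Marker genes of the labelled tissues were read first. Of 8 squamous epithelium markers 7 were called higher in the esophagus, while the brightest probe of *Trp63* ran the opposite way and was called higher in the stomach (difference -1.22, limma adjusted p = 0.0249). The other *Trp63* probes were not read here. All 5 markers of differentiated squamous layers were called higher in the esophagus. All 10 gastric columnar markers were called higher in the stomach. Arrays had 45.5% to 51.1% of spots well above background. All 3 stomach arrays and the esophageal arrays of mice 1 and 2 lay on slide 1, and the esophageal array of mouse 4 was alone on slide 2. In such bulk samples, fewer cells of a type and less RNA per cell cannot be told apart.

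Sequences upstream of the genes are shown first, because SREBP factors act with NF-Y and Sp1 at sterol-regulated promoters. RefSeq windows of 250 bases before the transcription start (assembly GRCm38.p6) were held for 23 of the 29 genes, 30 windows in all. *Fdps*, *Fdft1*, *Sqle*, *Scd1*, *Scd2* and *Stard4* were without one. The 4 windows below belong to *Hmgcs1*, the gene with a match to the sterol element, to the 2 enzymes called higher in the esophagus, and to *Mvk*, the other enzyme whose esophageal values all exceeded the stomach ones. They are written 5′ to 3′ on the strand of the gene, with capitals for the sterol regulatory element like motif TCACNCCAC and for CCAAT on either strand (ATTGG on the opposite one).
*Hmgcs1*, chr13:119690101-119690350, plus strand: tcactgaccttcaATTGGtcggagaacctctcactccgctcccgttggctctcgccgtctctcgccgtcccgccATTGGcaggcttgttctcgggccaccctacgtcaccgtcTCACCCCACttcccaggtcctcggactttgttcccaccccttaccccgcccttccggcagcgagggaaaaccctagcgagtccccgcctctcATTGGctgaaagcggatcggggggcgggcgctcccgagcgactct
*Idi1*, chr13:8885356-8885605, plus strand: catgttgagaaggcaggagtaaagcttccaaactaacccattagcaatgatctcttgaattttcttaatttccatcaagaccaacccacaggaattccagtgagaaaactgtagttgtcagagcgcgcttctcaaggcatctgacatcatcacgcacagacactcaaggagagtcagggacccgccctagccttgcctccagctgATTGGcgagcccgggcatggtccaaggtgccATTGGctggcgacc
*Hsd17b7*, chr1:169969206-169969455, minus strand: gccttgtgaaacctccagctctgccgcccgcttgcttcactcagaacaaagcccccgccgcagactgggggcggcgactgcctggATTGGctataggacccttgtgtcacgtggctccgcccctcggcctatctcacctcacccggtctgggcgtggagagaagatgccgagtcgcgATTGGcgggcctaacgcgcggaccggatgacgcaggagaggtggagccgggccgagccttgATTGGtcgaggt
*Mvk*, chr5:114444019-114444268, plus strand: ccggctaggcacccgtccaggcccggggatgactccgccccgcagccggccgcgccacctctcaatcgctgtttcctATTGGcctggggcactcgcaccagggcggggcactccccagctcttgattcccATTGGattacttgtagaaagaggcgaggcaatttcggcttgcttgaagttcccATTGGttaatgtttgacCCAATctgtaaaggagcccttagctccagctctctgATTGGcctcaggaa

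CCAAT, the NF-Y box, stood in the windows of 19 of 23 genes (82.6%), and 37.5% of all 27025 genes in the promoter table held it. *Mvk* had 5 matches, *Hmgcs1* and *Hsd17b7* had 3 each and *Idi1* had 2. *Insig2*, called higher in the stomach and not shown above, had 3 in a single window and none in its others. GGGCGG, the Sp1 box, was in 82.6% of these genes and 35.4% of all genes. CACGTG, an E-box, was in 4 of the 23 genes, *Dhcr7*, *Hsd17b7*, *Insig1* and *Sc5d* (17.4%), against 6.86% of all. TCACNCCAC was matched once, in *Hmgcs1*, 137 to 129 bases before the start (4.35% of these genes, 1.22% of all). Of 64 neighbouring lipid genes with a window, which are described last, 56.2% held CCAAT, 62.5% GGGCGG, 12.5% CACGTG and 4.69% TCACNCCAC. By windows rather than genes, CCAAT was in 66.7% of the 30 and in 33.8% of all 32851 windows. Both strands were searched and no motif contains another. A match of letters is not a measured binding site, and the counts came from a list already known to share a regulator.

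Between the tissues, 2 enzymes of cholesterol synthesis were higher in esophageal organoids, *Idi1* and *Hsd17b7*, and 1 regulator, *Insig2*, was higher in stomach organoids. These 3 of 29 genes are 10.3%, and over all 18489 genes detected in at least 1 tissue 26.6% were called in either direction by the same fit (12.8% toward esophageal and 13.9% toward stomach organoids). Over all 34298 gene names 14.9% were called. A call is a limma adjusted p under 0.05, with Benjamini-Hochberg adjustment over all probes. With an array left out, 0 to 4 genes were called on the esophageal side and 0 to 2 on the stomach side. No gene was called without the stomach array of mouse 1, and none was on the esophageal side without the stomach or the esophageal array of mouse 2. Without the stomach array of mouse 4, or without the esophageal array of mouse 1, 4 were on that side. With the mouse as a block, or without the esophageal array of mouse 4, 1 was. The median difference over the 29 genes was 0.38, with 21 positive and 8 negative, beside a median of 0.06 over detected genes. At the methods' threshold of an unadjusted p under 0.05 and a 1.5-fold change, *Mvk* and *Acaca* joined the esophageal side, giving 4 genes on that side and 1 on the other. Of detected genes 37.8% passed this threshold, 18.9% in each direction. The values of the tissues did not overlap for 4 of the 29 genes, with the esophagus above for *Idi1*, *Hsd17b7* and *Mvk* and the stomach above for *Insig2*, and they did not overlap for 45.5% of detected genes (24.2% with the esophagus above and 21.3% with the stomach above).

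The other 26 genes were not called, and for 5 of them the 95% interval of the difference lay within 2-fold either way. For the remaining uncalled genes, differences over 2-fold were not excluded by these arrays. The residual standard deviation of a gene between cultures of one tissue had a median of 0.55 over the 29 genes, larger than the 0.31 over detected genes. The 29 genes were well above background on all 6 arrays, while a detected gene needs this in only 1 tissue. These medians may therefore cover unlike intensities, and no set matched in brightness was drawn.

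**Figure D1:**
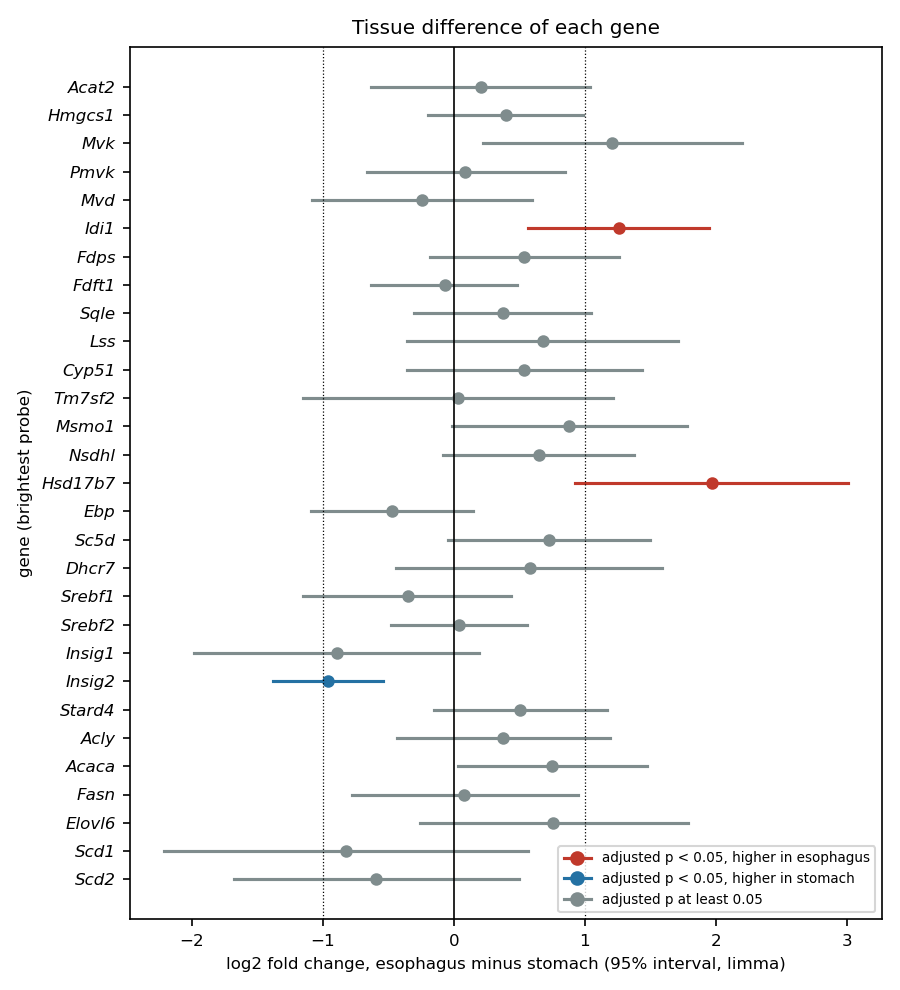
Difference between esophageal and stomach organoids for each of the 29 genes, as log2 fold change on the x axis with its 95% interval from limma, and genes in pathway order on the y axis. Dotted lines mark 2-fold. *Idi1* (1.26) and *Hsd17b7* (1.97) lie to the right and *Insig2* (-0.96) to the left with adjusted p under 0.05, and most other intervals cross 0.

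The mevalonate steps make the isoprenoid units. *Idi1*, the isomerase that interconverts these units, read 13.71, 14.42 and 14.30 in the esophagus of mice 1, 2 and 4, and 12.77, 12.43 and 13.45 in the stomach. Every esophageal value lay above every stomach value. The mean difference was 1.26 (standard error 0.30, 2.4-fold, limma adjusted p = 0.0316) at the probe chr13:8891524-8891583 of mm9, plus strand. Without the stomach array of mouse 1 or 2, or the esophageal array of mouse 2 or 4, the difference was 1.03 to 1.2 and the limma adjusted p rose to 0.125, 0.117, 0.106 and 0.0798 respectively.

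*Mvk*, mevalonate kinase, read 11.51, 13.36 and 12.97 in the esophagus of mice 1, 2 and 4 and 11.39, 11.34 and 11.49 in the stomach. The stomach values were nearly level, the esophageal value of mouse 1 lay just above them, and those of mice 2 and 4 stood well apart. The difference of 1.21 was not called (standard error 0.43, limma adjusted p = 0.126). It was called without the esophageal array of mouse 1, at 1.76 (limma adjusted p = 0.00104). A second *Mvk* probe gave 0.94 (limma adjusted p = 0.237).

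*Hmgcs1*, the cytosolic HMG-CoA synthase, read 14.07, 15 and 14.31 in the esophagus and 13.96, 13.92 and 14.31 in the stomach. The groups overlapped, and only the esophageal array of mouse 2 stood above all the others. The difference of 0.40 was not called (standard error 0.26, limma adjusted p = 0.422). The file places this probe on chr13_random of mm9, while the promoter window above lies on chromosome 13 of the later assembly.

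The other 4 mevalonate genes were not called. *Fdps*, which makes farnesyl diphosphate, differed by 0.54 (95% interval -0.18 to 1.26), *Acat2*, the thiolase that starts the route, by 0.21, *Pmvk*, the next kinase after *Mvk*, by 0.09, and *Mvd*, the decarboxylase before *Idi1*, by -0.24. Their limma adjusted p ran from 0.356 to 0.908.

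None of the 3 genes that take farnesyl diphosphate to lanosterol was called by limma, and none passed an unadjusted p under 0.05. *Sqle*, the squalene epoxidase, read 13.53, 14.66 and 13.68 in the esophagus and 13.59, 13.46 and 13.69 in the stomach. As with *Hmgcs1*, the esophageal array of mouse 2 was high and the other 5 arrays lay close together, and the difference was 0.38 (standard error 0.29, limma adjusted p = 0.519). *Lss*, the cyclase that forms lanosterol, differed by 0.68 (95% interval -0.36 to 1.71), and *Fdft1*, squalene synthase, by -0.07 (95% interval -0.63 to 0.48). The direction of *Fdft1* turned with scaling to the 75th percentile, where it was 0.19.

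Among the 8 enzymes from lanosterol to cholesterol, *Hsd17b7*, the 3-keto reductase of the demethylation complex, had the largest difference of all 29 genes. It read 10.87, 11.52 and 10.55 in the esophagus of mice 1, 2 and 4 and 8.72, 8.29 and 10.02 in the stomach. The groups did not overlap, although the stomach value of mouse 4 came close to the lowest esophageal value, that of mouse 4. The difference was 1.97 (standard error 0.45, 3.91-fold, limma adjusted p = 0.0267) at the probe chr1:171880203-171880262 of mm9, minus strand. A second probe gave 1.79 and was also called (limma adjusted p = 0.0216), and the remaining probe, which no stomach array read well above background, gave 0.74 (limma adjusted p = 0.21).

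The call for *Hsd17b7* did not hold with the mouse as a block (limma adjusted p = 0.0596 at the same difference). It was also lost when an array was left out, with a limma adjusted p of 0.115 without the stomach of mouse 1, 0.0988 without the stomach of mouse 2, 0.053 without the esophagus of mouse 1 and 0.0902 without the esophagus of mouse 2. Over these fits the difference stayed between 1.61 and 2.02.

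Of the other 7 enzymes in this stretch 6 had positive differences and none was called. *Msmo1*, the methyl oxidase, differed by 0.88 (95% interval -0.01 to 1.78), *Sc5d*, the desaturase near the end of the route, by 0.73 (95% interval -0.04 to 1.5), and *Nsdhl*, which removes the carboxyl group left by demethylation, by 0.65 (95% interval -0.08 to 1.38). Both *Msmo1* and *Sc5d* were called without the stomach array of mouse 4, at 1.30 and 1.09 (limma adjusted p = 0.0301 and 0.0319). *Dhcr7*, the last reductase of one branch, differed by 0.58, *Cyp51*, the lanosterol demethylase, by 0.54 and *Tm7sf2*, a sterol reductase, by 0.03. *Ebp*, the sterol isomerase, ran the other way at -0.47 (95% interval -1.09 to 0.15).

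Of the 5 regulators and carriers, *Insig2*, one of the 2 INSIG retention proteins, alone was called. It read 11.07, 10.95 and 11.33 in the esophagus of mice 1, 2 and 4 and 12.33, 11.98 and 11.9 in the stomach. Every stomach value lay above every esophageal value. The difference was -0.96 (standard error 0.18, 1.94-fold higher in the stomach, limma adjusted p = 0.0118) at the probe chr1:123201085-123201144 of mm9, minus strand, and a second probe gave -1.19 (limma adjusted p = 0.0107). The call was lost without the stomach array of mouse 1 (-0.83, limma adjusted p = 0.0548). It was also lost with processed signals scaled to the 75th percentile (-0.68, limma adjusted p = 0.26), a scaling that placed the median over all detected genes at 0.17 instead of 0.06.

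*Insig1*, the other INSIG gene and itself an SREBP target, read 8.03, 9.74 and 7.91 in the esophagus and 9.08, 9.70 and 9.57 in the stomach. The esophageal arrays of mice 1 and 4 were below all stomach arrays, and that of mouse 2 was above them. The difference of -0.89 was not called (standard error 0.47, limma adjusted p = 0.307), but it was -1.48 and called without the esophageal array of mouse 2 (limma adjusted p = 0.00916).

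*Srebf2*, which encodes the SREBP factor acting mostly on sterol genes, read 10.45, 11.32 and 10.83 in the esophagus and 10.81, 10.76 and 10.90 in the stomach. The esophageal values spanned the stomach values on both sides, and the difference was 0.04 (95% interval -0.48 to 0.56, limma adjusted p = 0.943). A second, dimmer probe of this gene gave 1.11 (limma adjusted p = 0.166), so its probes disagreed in size. *Srebf1*, whose product acts mostly on fatty acid genes, read 7.66, 8.61 and 9 in the esophagus and 8.60, 8.59 and 9.15 in the stomach. The esophageal array of mouse 1 was the low one, and the difference of -0.35 was not called (95% interval -1.15 to 0.44, limma adjusted p = 0.62). *Stard4*, which carries sterol through the cytosol, differed by 0.51 and was called only without the esophageal array of mouse 1, at 0.82 (limma adjusted p = 0.0437).

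None of the 6 fatty acid synthesis genes was called by limma, and *Acaca* alone passed an unadjusted p under 0.05. *Fasn*, the synthase, read 7.76, 9.20 and 8.75 in the esophagus of mice 1, 2 and 4 and 8.10, 8.49 and 8.87 in the stomach. The esophageal values spanned the stomach values on both sides. The difference of *Fasn* was 0.08 (95% interval -0.78 to 0.95, limma adjusted p = 0.93). *Acaca*, the acetyl-CoA carboxylase, differed by 0.75 (limma adjusted p = 0.191), *Elovl6*, an elongase, by 0.76 and *Acly*, which makes cytosolic acetyl-CoA from citrate, by 0.38. *Acly* was called without the esophageal array of mouse 1, at 0.82 (limma adjusted p = 0.0235).

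The stearoyl-CoA desaturases, which place the double bond of oleate, had negative differences and were not called. *Scd1* read 9.72, 11.39 and 11.59 in the esophagus and 11.03, 11.33 and 12.81 in the stomach (difference -0.82, standard error 0.60, limma adjusted p = 0.486). *Scd2* read 13.85, 15.68 and 15.35 in the esophagus and 15.19, 15.39 and 16.08 in the stomach (difference -0.59, standard error 0.47, limma adjusted p = 0.533). In both, the esophageal array of mouse 1 was lowest and the stomach array of mouse 4 highest. These genes are close paralogs, and cross-hybridisation between their probes was not tested.

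**Figure D2:**
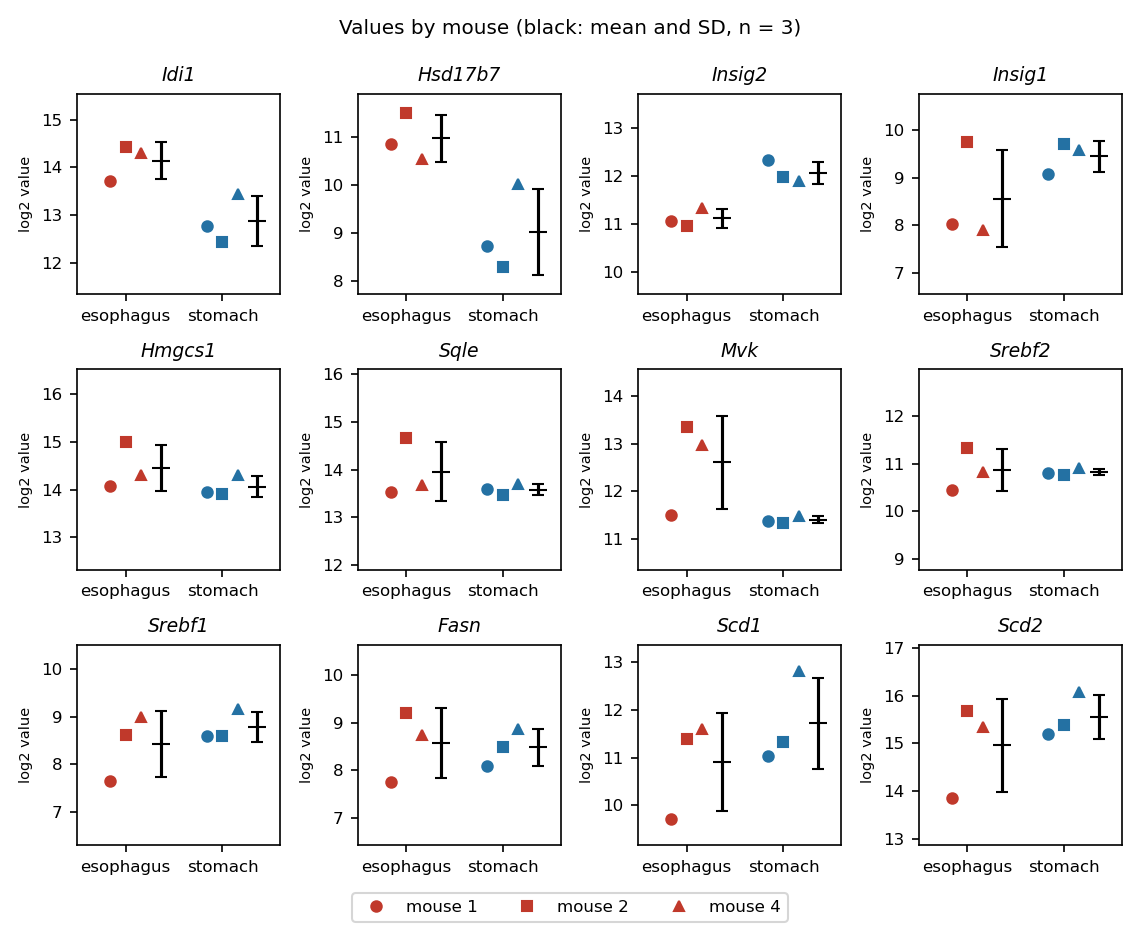
Values of 12 of the genes on each array, with tissue on the x axis, log2 intensity on the y axis, symbols for the mouse, and the mean and SD of 3 arrays in black. All panels span the same number of log2 units, and values of different genes are not comparable. Groups separate for *Idi1*, *Hsd17b7*, *Insig2* and *Mvk* and overlap for the other 8.

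Other probes of these genes gave the same calls but not always the same size of difference. Of 16 further probes 13 were detected, and all 13 had the same call or absence of a call as the brightest probe of their gene. The sign was the same for 11 of the 13, and no probe was called in the opposite direction. The widest gaps in size among detected probes were in *Srebf2*, given above, and *Stard4*. The dimmer probe of *Stard4* read 7.59, 9.12 and 8.63 in the esophagus of mice 1, 2 and 4 and 6.66, 6.99 and 7.47 in the stomach, without overlap. Its difference was 1.41, beside 0.51 for the brightest probe. It was short of a call without a block (limma adjusted p = 0.0568) and called with the mouse as a block (limma adjusted p = 0.0251). Fits with an array left out, other offsets or other scaling are not given here for this probe. The dimmer probes of *Srebf2* and *Stard4* both passed the methods' threshold.

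Many of the 29 genes varied between mice in the same order within a tissue. The esophageal array of mouse 1 was the lowest of its 3 for 24 of the 29 genes, the esophageal array of mouse 2 was the highest for 22, and the stomach array of mouse 4 was the highest for 24. Over 18471 detected genes measured on all arrays these shares were 36.5%, 25.3% and 44.6%. All 3 held together for 16 of the 29 genes (55.2%) and for 5.65% of detected genes. This order was noticed in these same values, and no test was made of it, since genes of 1 array are not replicates.

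By role, all 3 held for 6 of 7 mevalonate genes (*Hmgcs1*, *Mvk*, *Pmvk*, *Mvd*, *Idi1* and *Fdps*), for *Sqle* and *Lss* of the 3 genes up to lanosterol, and for *Cyp51*, *Tm7sf2*, *Nsdhl* and *Dhcr7* of the 8 genes after it. They held for *Acly*, *Fasn* and *Scd2* of the 6 fatty acid genes and for *Srebf2* alone of the 5 regulators and carriers. *Insig2*, the gene called higher in the stomach, did not share the order.

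In size, the median deviation of the 29 genes from their tissue mean was -0.55 on the esophageal array of mouse 1, 0.54 on that of mouse 2 and 0.07 on that of mouse 4. In the stomach it was -0.29, -0.14 and 0.42 for mice 1, 2 and 4. The corresponding medians over all detected genes lay between -0.03 and 0.04. Quantile normalization makes the arrays alike in distribution, which tends to hold these medians near 0. The 6 fatty acid genes fell furthest on the esophageal array of mouse 1, with a median of -0.89, and the lanosterol to cholesterol enzymes stood highest on the stomach array of mouse 4, with a median of 0.75.

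**Figure D3:**
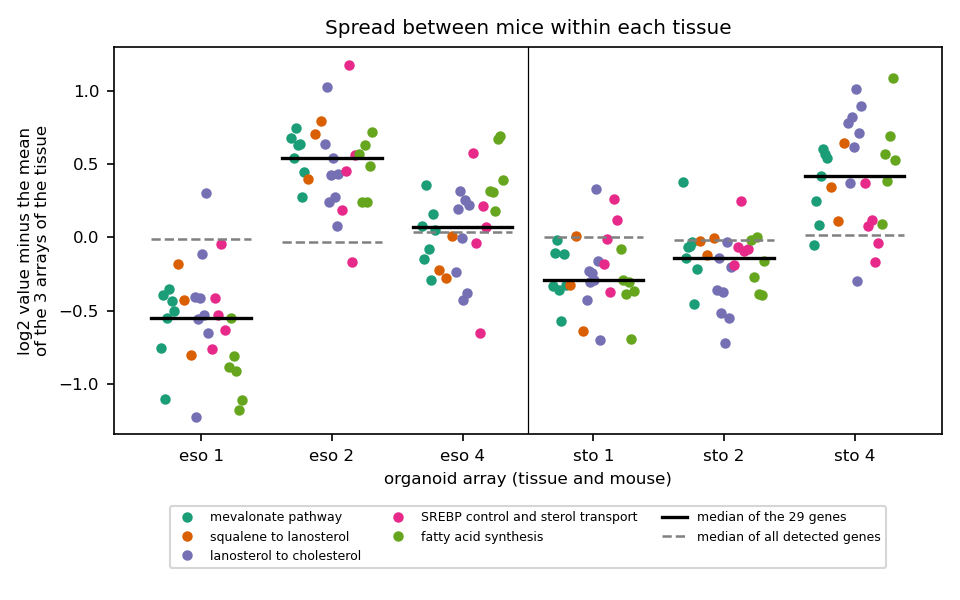
Deviation of each of the 29 genes from the mean of its tissue on each array, with arrays on the x axis, log2 units on the y axis and colours for pathway role. Black lines are the median of the 29 genes (-0.55, 0.54 and 0.07 for the esophageal arrays, -0.29, -0.14 and 0.42 for the stomach arrays). Dashed lines are the median of all detected genes, which quantile normalization tends to hold near 0.

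The difference between the tissues was unequal between mice. Within mouse 2 the esophagus exceeded the stomach for 27 of 29 genes with a median difference of 1.15, and 16 genes were past 2-fold upward and 1, *Insig2*, past 2-fold downward. Within mouse 1 the median was -0.02, with 14 genes positive and 15 negative, and past 2-fold were 2 upward and 5 downward. Within mouse 4, whose cultures differed in harvest day and slide, it was -0.01, with 13 positive and 16 negative, and past 2-fold were 1 upward and 3 downward. Of detected genes 51.5%, 51.9% and 54.9% were positive within mice 1, 2 and 4, with medians of 0.03, 0.04 and 0.09. The share of detected genes past 2-fold within a mouse was not counted. All 3 mice gave the same sign for 10 of the 29 genes (34.5%), 9 of them positive, and for 60% of detected genes. Without the esophageal array of mouse 2 the median of the 29 differences was 0.09 and the called genes were *Insig1* and *Insig2*, both higher in the stomach. Without the esophageal array of mouse 1 it was 0.59, and *Mvk*, *Idi1*, *Stard4* and *Acly* were called higher in the esophagus and *Insig2* in the stomach.

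**Figure D4:**
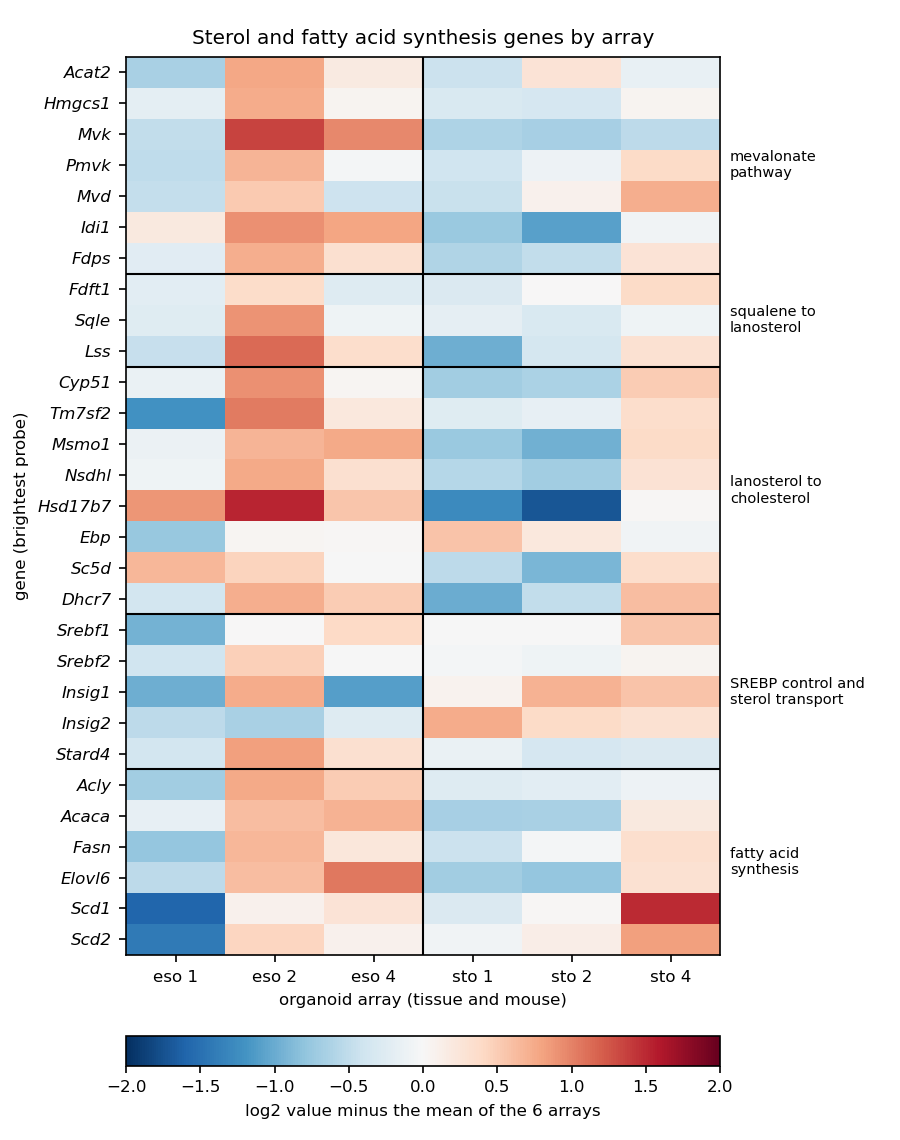
Each of the 29 genes (rows, in pathway order) on each array (columns, tissue and mouse), coloured by its log2 value minus its mean over the 6 arrays. The column of esophageal mouse 2 is mostly red and that of esophageal mouse 1 mostly blue, and the stomach column of mouse 4 is redder than the other stomach columns.

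Other measures of these arrays were set beside that order. The stomach culture of mouse 4 was the one harvested on day 7, and the esophageal array of mouse 4 was the one on slide 2. Summed levels are log2 of the summed intensity. For 4 proliferation markers the summed level was 14.48, 15.47 and 15.72 in the esophagus of mice 1, 2 and 4. In the stomach it was 15.28, 15.18 and 15.07. The sum was lowest on the esophageal array of mouse 1 and on the stomach array of mouse 4. In the stomach the 4 markers did not run alike. There *Mki67* (13.35, 13.59 and 13.72) and *Top2a* (10.47, 10.56 and 10.62) were highest in mouse 4. *Pcna* (13.36, 13.23 and 13.16) and *Stmn1* (14.09, 13.76 and 13.33) were lowest in mouse 4. The summed level of 5 differentiated squamous markers was 17.75, 18.13 and 16.12 in the esophagus, lowest in mouse 4. Of 5 adipocyte markers only *Fabp4*, a fatty acid binding protein, was above background, and it read 7.24, 11.79 and 8.65 in the esophagus and 6.76, 6.49 and 10.03 in the stomach. *Fabp4* was thus highest on the same array of each tissue as most of the 29 genes, while *Adipoq*, *Plin1*, *Lep* and *Cfd* were above background on no array. The summed level of 9 fibroblast and smooth muscle markers ran from 9.29 to 10.63 in the esophagus and from 9.43 to 10.94 in the stomach. Of the 9, 4, among them *Lum* and *Pdgfra*, were above background on no array. Most of this sum was *Tagln*, at 10.41, 10.13 and 8.55 in the esophagus and 9.3, 8.76 and 10.76 in the stomach. The summed level of 5 immune markers ran from 11.91 to 14.79 in the esophagus, highest in mouse 1, and from 11.21 to 12.48 in the stomach, highest in mouse 4. It was mostly *Cd68*, at 14.77, 12.94 and 11.8 in the esophagus and 11.04, 11.22 and 12.36 in the stomach. *Ptprc* and *Lyz2*, 2 of the 5, were above background on no array. These 2 sums therefore mostly follow 1 gene each. The part of these measures in the order of the arrays was not tested.

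Genes next to these in the pathway were read from 4 lists of 76 genes in all, 69 of them detected. In these lists 27 genes were called (35.5%), 6 toward the esophagus and 21 toward the stomach, with a median difference of -0.14. Over detected genes 26.6% were called, 12.8% and 13.9% in these directions. On the esophageal side the 6 fell to 1 without the stomach array of mouse 1 or 2 and to 2 without the esophageal array of mouse 2. The order of arrays described above held for 8 of the 76 (10.5%).

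None of 8 other sterol and isoprenoid synthesis genes was called by limma, while 1 of them passed at an unadjusted p under 0.05. The list had a median difference of 0.04, with 4 genes positive and 4 negative, and the order of arrays held for 1 of them, *Aacs*, which activates acetoacetate for lipid synthesis.

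In the list of SREBP processing and sterol traffic, 5 of 22 genes were called toward the stomach, beside 13.9% of detected genes. The sterol esterifying enzymes *Soat1* and *Soat2* were both higher in the stomach. *Soat1* read 6.04, 6.43 and 6.75 in the esophagus against 9.25, 9.41 and 9.55 in the stomach (difference -3, limma adjusted p = 5.84e-05), and *Soat2* read 7.5, 6.2 and 7.25 against 10.8, 10.69 and 11.35 (difference -3.96, limma adjusted p = 0.000222). Neither gene overlapped between the tissues. *Lipa*, the lysosomal cholesteryl ester hydrolase (-1.61), *Stard3*, a late endosome sterol carrier (-1.38), and *Nr1h3*, the sterol-sensing receptor LXRα (-1.68), were also called higher in the stomach. *Nr1h3* was not called without the stomach array of mouse 1 or 2 (limma adjusted p = 0.0537 and 0.0555).

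Higher in the esophagus were the cholesterol exporter *Abca1* (1.45), the ubiquitin ligase *Mylip* (1.36) and the SREBP escort *Scap* (0.64). They are 3 of the 22 genes in that list, beside 12.8% of detected genes called in that direction. None of these 3 calls held in every fit that left out an array. Limma adjusted p was 0.052 to 0.111 for *Abca1* without any stomach array or without the esophagus of mouse 4, 0.0633 to 0.102 for *Mylip* without any array but the esophagus of mouse 1, and 0.066 to 0.126 for *Scap* without mouse 1 or 2 of either tissue. The *Scap* call was also lost with the mouse as a block (limma adjusted p = 0.075).

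Of 27 genes of fatty acid supply, elongation and desaturation, 3 were called toward the esophagus and 7 toward the stomach. Of detected genes 12.8% and 13.9% were called in these directions. *Me1*, the malic enzyme that supplies NADPH, read 12.45, 12.46 and 11.84 in the esophagus and 15.09, 14.64 and 15.17 in the stomach (difference -2.72, limma adjusted p = 0.000183). *Acacb*, the carboxylase of the mitochondrial surface, was higher in the stomach (-4.31, limma adjusted p = 3.61e-05, above background on 2 of 3 esophageal arrays), although a second, dimmer probe gave -0.9 with overlapping groups (limma adjusted p = 0.159) and the average of its probes -2.6 (limma adjusted p = 0.000693). Also higher in the stomach were *Fads3* of the desaturase family (-3.33), the acyl-CoA ligase *Acsl3* (-1.5), the elongase *Elovl5* (-1.31) and the citrate carrier *Slc25a1* (-1.26). *Thrsp*, a lipogenic regulator that no esophageal array read well above background, had a group mean at least 1.64-fold higher in stomach organoids.

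On the esophageal side of that list was *Elovl4*, the elongase of very long chain fatty acids used in epidermal barrier lipids. It read 13.19, 13.26 and 9.89 in the esophagus and was not well above background on the stomach arrays. Its esophageal mean was at least 148-fold higher by this probe (limma adjusted p = 8e-04) and at least 48.4-fold by a second one. These are bounds on means, and within mouse 4 the difference by the first probe was 4.94. The fitted difference of *Elovl4* was 7.39 (95% interval 5.48 to 9.29). With an array left out it ran from 6.81 to 8.5, the latter without the esophageal array of mouse 4, the low one. *G6pdx*, the first enzyme of the pentose phosphate route, rose by 1.03 and the desaturase *Fads1* by 0.96. Calls in this list that were lost without an array were *G6pdx* without stomach mouse 1 or 2 or esophagus mouse 2 (limma adjusted p = 0.0664 to 0.0914), *Fads1* without any array but stomach mouse 4 (0.0652 to 0.137), *Slc25a1* without stomach mouse 2 or esophagus mouse 2 or 4 (0.0582 to 0.0621), *Elovl5* without stomach mouse 1 or esophagus mouse 1 or 2 (0.0631 to 0.0666) and *Acsl3* without stomach mouse 1 (0.0588). *Slc25a1* was also lost with the mouse as a block (limma adjusted p = 0.058).

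Of 19 glycerolipid synthesis and lipid droplet genes, 9 were called higher in the stomach (47.4%), beside 13.9% of detected genes. None was called higher in the esophagus, where 2 passed an unadjusted p under 0.05 with 1.5-fold. Of detected genes 18.9% passed that threshold in that direction. The list's median difference was -1.13. *Mogat2*, a monoacylglycerol acyltransferase, read 5.84, 5.29 and 5.67 in the esophagus and 11.86, 11.66 and 11.45 in the stomach (difference -6.06, limma adjusted p = 8.82e-07). *Pparg*, the lipogenic nuclear receptor, read 10.13, 8.85 and 8.80 against 13.59, 13.30 and 14.51 (difference -4.54, limma adjusted p = 0.000331). The droplet coat genes *Plin5* (-3.53) and *Plin3* (-1.22), the lipase *Pnpla2* (-1.52), and the acyltransferases *Agpat2* (-1.43) and *Dgat1* (-0.83) were called in the same direction. *Plin3* and *Dgat1* each lost the call in 1 alternative fit (limma adjusted p = 0.0943 and 0.157). *Cidec* and *Plin4*, further droplet proteins that no esophageal array read well above background, had group means at least 13.3-fold and 2.23-fold higher in stomach organoids by these probes. A second *Cidec* probe, near background in both tissues, gave -0.39 and was not called (limma adjusted p = 0.132), and the average of the probes gave -2.17 (limma adjusted p = 0.00035). *Plin4* lost its call without any array but stomach mouse 4 (limma adjusted p = 0.0597 to 0.156).

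**Figure D5:**
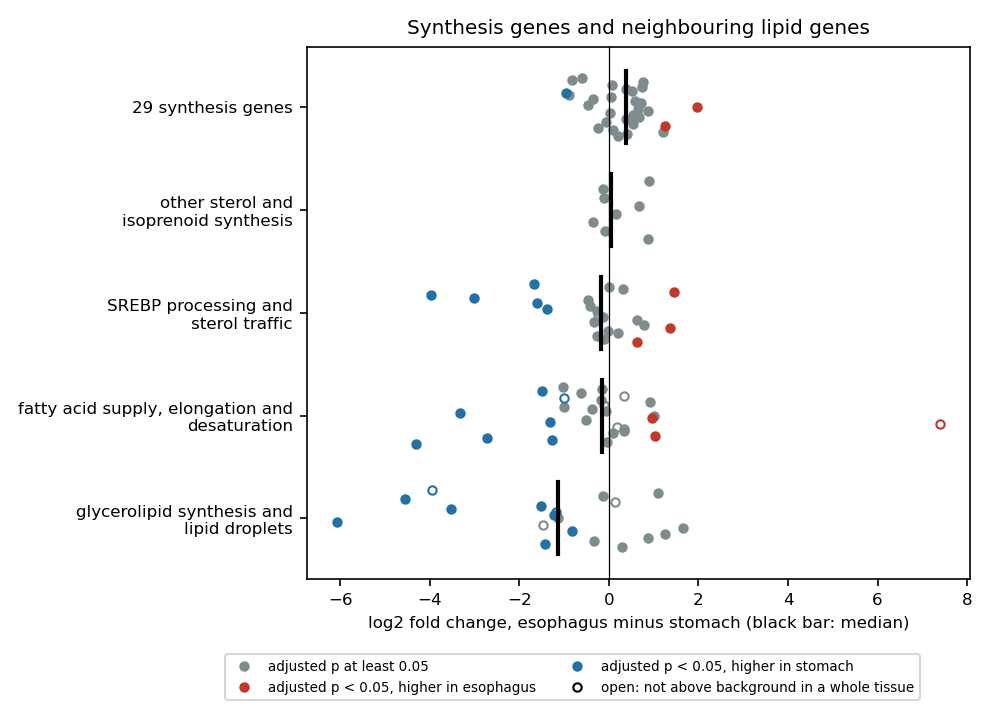
Log2 fold change (x axis, esophagus minus stomach) of the 29 genes and of the genes in 4 neighbouring lists, 1 point per gene, with colours for calls, open points for genes not above background on any array of a tissue, whose fitted value is not a bound, and bars for medians. The synthesis genes centre at 0.38 with 3 calls, and the glycerolipid and lipid droplet genes at -1.13 with 9 calls, all higher in the stomach.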

How the data were processed

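Total RNA of 6 organoid cultures was labelled with Cy3 and hybridised to single-colour 60-mer arrays. The authors used Agilent Feature Extraction (version 11.5.1.1) on the scans, and the deposited scanner files hold the intensity of each spot, its local background intensity and flags. The log2 values deposited by the authors are background corrected and quantile normalized. Normexp on median intensities with an offset of 15 and quantile normalization gave them back to within 0.00433 (median) and 0.0726 (largest absolute difference), and their 2029 empty cells are outlier-marked spots. Such an offset shrinks fold changes of dim genes.

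Spots of a probe were averaged, and limma (version 3.58.1, R 4.3.3) compared the tissues over all 55681 non-control probes with lmFit and eBayes, without a block, with Benjamini-Hochberg adjustment. A gene counts as detected when all 3 arrays of at least 1 tissue read its probe well above background. A lower bound on a fold sets the bright group's mean against, on each array, the higher of the dim probe's value and the lowest value well above background. This bound is on group means of the deposited values and takes no account of the spread between arrays. Precision is limited by the number of arrays, and 3 against 3 allow no exact permutation p under 0.1. The same animal numbers pair the arrays. Deviations of a mouse's 2 arrays from their tissue means correlated across detected genes with r = 0.035, 0.013 and -0.001, and those of different mice with -0.078 to 0.038. Such correlations across genes do not show whether pairing matters for a given gene. The study's methods name no block, so the mouse as a block was an alternative. Others were mean intensities with offsets of 16 and 50, processed signals scaled to the 75th percentile, a filter on dim probes, averaging probes, trend and robust variances, the slide as a block, each array left out, and the methods' threshold. The fit was tested on simulated data.

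Named are all 29 genes, with full values for those called with a log2 difference of at least 1 and for 8 regulators and enzymes fixed by name, and of the neighbouring lists called genes of at least that difference. *Mvk*, *Sqle*, *Stard4*, *Aacs*, *Scap*, *Fads1*, *Dgat1* and the marker genes were singled out after their values were seen. The members and lists were chosen with earlier results of these data known. Some genes of these pathways are not reported here. Gene names and probe positions (mm9) are those of the files, which do not say what part of a transcript a probe lies in. Promoter windows are from RefSeq. Figures were drawn with matplotlib (version 3.10.9).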

Additional observations from a re-analysis of the deposited data

How the results depend on the processing

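Of the 29 genes, 21 kept the direction of their difference under every alternative fit and 12 kept both direction and call, and no called gene reversed. The methods' threshold is not counted in the 12, and *Acaca*, 1 of them, passed it. The count called higher in the esophagus was 2, and it was 0 with an offset of 50, 1 with the mouse as a block (paired analysis), 1 with the slide as a block, 4 at the methods' threshold and 0 to 4 with an array left out. The count called higher in the stomach was 1, and it was 0 with 75th percentile scaling and 0 to 2 with an array left out. Without the stomach array of mouse 1 no member was called, and without that of mouse 2 only *Insig2*. Over all genes 2452 were called higher in the esophagus, with 1349 to 2611 when an array was left out, lowest without the stomach array of mouse 1 or 2, and 3768 at the methods' threshold. Of the 76 neighbouring genes 6 were called higher in the esophagus, with 3 at an offset of 50, 1 to 7 with an array left out and 12 at the methods' threshold. The 21 neighbouring genes called higher in the stomach became 18 with 75th percentile scaling and 17 to 23 with an array left out. With the mouse as a block *Hsd17b7*, *Scap* and *Slc25a1* were lost and no other named gene changed its call. With an offset of 50 *Idi1* and *Hsd17b7* fell short (limma adjusted p = 0.0636 and 0.064). The slide as a block equals leaving out the esophageal array of mouse 4. Reversals concerned uncalled genes. *Pmvk* was -0.03 with averaged probes, *Fdft1* 0.19 with 75th percentile scaling and 0.03 with the slide as a block, and *Tm7sf2* -0.07 and *Fasn* -0.01 with the slide as a block. With an array left out the ranges were -0.13 to 0.58 for *Acat2*, -0.22 to 0.37 for *Pmvk*, -0.56 to 0.06 for *Mvd*, -0.27 to 0.10 for *Fdft1*, -0.48 to 0.65 for *Tm7sf2*, -0.64 to 0.03 for *Srebf1*, -0.18 to 0.25 for *Srebf2* and -0.23 to 0.49 for *Fasn*. The cause of these changes was not tested.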
